A study of Mus musculus with 40 samples.

Results

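Endothelial cells line the blood vessels of the heart, and 10 genes that mark them or act in them were followed here: Pecam1, Cdh5, Kdr, Flt1, Tie1, Tek, Nos3, Eng, Plvap and Sox17. They were chosen by name, as those of this set that are rows of the deposited expression table. All 10 were among its 11450 genes, and all 10 passed the filter on low values that left 11390 genes for testing. The libraries came from adult C57BL/6 mice, a common inbred strain, whose left anterior descending coronary artery had been tied off for good. On each of days 3, 7, 14, 21 and 42 after ligation, 4 mice gave 1 library from the injured region, the scar, and 1 from an uninjured region away from it, 40 libraries in all. Every animal had the ligation, and no heart without one entered the comparisons, so the uninjured region is tissue of an infarcted heart and not of a healthy one. The mice of day 42 have labels in B and all others labels in A, and the sex of the mice is not stated in the labels. The labels name cardiac muscle as the tissue: the summed level of 11 cardiomyocyte genes was 23322 to 37325 RPKM over the uninjured and 1474 to 8227 over the injured libraries. RPKM, the deposited unit, is reads per kilobase of gene, scaled to the size of the library.

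Vascular endothelial growth factor acts on endothelial cells through the receptor tyrosine kinases Kdr, the main signalling receptor, and Flt1, which binds the ligand tightly, signals weakly and also exists as a soluble decoy. Tek is the receptor of the angiopoietins, and Tie1 is its related partner receptor without a ligand of the same kind. Cdh5 and Pecam1 are adhesion proteins of the junctions between endothelial cells, Nos3 makes nitric oxide, Eng is a co-receptor for BMP9 and BMP10, Plvap forms the diaphragms of fenestrae and caveolae, and Sox17 is a transcription factor of arterial endothelium. The heart muscle is densely supplied with continuous capillaries, in which Plvap is normally low, and permanent ligation cuts off the vessels of the infarcted wall. In whole tissue, fewer cells of a type and less RNA per cell cannot be told apart.

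RefSeq promoter windows were at hand for 5 of the 10 genes (GRCm38.p6 build, 250 bases before to 50 bases from the annotated start), namely Kdr, Flt1, Tie1, Tek and Eng. They are shown for 4 that fell into opposite groups in the comparison of the regions below: Kdr, Flt1 and Tie1 were lower in the injured region from day 7 on and Eng was higher on every day. Capitals mark hexamers around the core that ETS factors bind, on either strand: AGGAAG and its variant AGGAAA, and likewise CGGAAG with its variant CGGAAA. The other letters are in lower case.
Kdr, chr5:75978406-75978705, minus strand: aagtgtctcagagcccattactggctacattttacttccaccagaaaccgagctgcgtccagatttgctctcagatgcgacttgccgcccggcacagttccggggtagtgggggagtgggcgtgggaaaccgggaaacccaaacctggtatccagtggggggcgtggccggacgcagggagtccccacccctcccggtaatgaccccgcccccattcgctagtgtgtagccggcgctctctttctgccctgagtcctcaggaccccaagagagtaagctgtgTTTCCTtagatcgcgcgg
Flt1, chr5:147725962-147726261, minus strand: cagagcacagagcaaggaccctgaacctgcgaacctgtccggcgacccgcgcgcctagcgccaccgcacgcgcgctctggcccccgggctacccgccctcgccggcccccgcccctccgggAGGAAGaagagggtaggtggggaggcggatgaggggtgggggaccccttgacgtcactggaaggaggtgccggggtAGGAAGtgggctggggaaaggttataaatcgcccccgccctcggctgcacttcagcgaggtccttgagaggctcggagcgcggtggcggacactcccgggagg
Tie1, chr4:118489800-118490099, minus strand: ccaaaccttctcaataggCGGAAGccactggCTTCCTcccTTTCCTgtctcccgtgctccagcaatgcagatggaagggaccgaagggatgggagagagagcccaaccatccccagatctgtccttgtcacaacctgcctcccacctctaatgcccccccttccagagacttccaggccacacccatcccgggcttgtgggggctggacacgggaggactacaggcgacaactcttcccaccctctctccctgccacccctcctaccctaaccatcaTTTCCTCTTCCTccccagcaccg
Eng, chr2:32646345-32646644, plus strand: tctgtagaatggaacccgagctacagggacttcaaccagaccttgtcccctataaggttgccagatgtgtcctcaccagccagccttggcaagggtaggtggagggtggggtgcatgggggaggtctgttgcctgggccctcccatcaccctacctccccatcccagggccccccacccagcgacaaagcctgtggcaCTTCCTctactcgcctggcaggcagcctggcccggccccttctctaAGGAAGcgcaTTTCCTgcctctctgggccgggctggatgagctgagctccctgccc
Kdr held 1 such hexamer, Flt1 2, Eng 3 and Tie1 5, of which the last pair run together in the capitals. Among 32851 windows of the same length, 64.7% held at least 1 hexamer, 31.4% at least 2, 12.5% at least 3 and 1.40% at least 5. The Tek window held none of them and held the SOX core ACAAT 2 times (either strand), a count reached by 7.98% of windows, while the other 4 had no ACAAT, which 31.0% of windows held. These are letter matches and not tested sites.

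At day 3 the 10 genes stood apart from one another, and from day 7 on most were lower in the scar. At day 3, 6 were higher in the injured region (Pecam1, Cdh5, Nos3, Eng, Plvap and Sox17), 3 were lower (Kdr, Flt1 and Tek) and Tie1 did not pass (limma with the mouse as a block, Benjamini-Hochberg adjusted p under 0.05 over all genes tested). On that day 44.1% of all genes tested were called higher and 39.6% lower. At day 7 only Eng and Plvap were higher and 7 were lower, against 43.6% and 38.7% of all genes, and Sox17 did not pass. At days 14, 21 and 42 again 2 were higher, Eng and Plvap, and 8 were lower. The background on these days was 42.4%, 43.1% and 40.5% higher and 40.5%, 41% and 38.7% lower. The median log2 difference of the 10, injured minus uninjured on the log2(RPKM + 1) scale, was 0.37 at day 3 and then -0.79, -0.70, -0.90 and -0.87. Over all genes tested the median lay between 0.03 and 0.06.

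**Figure D1:**
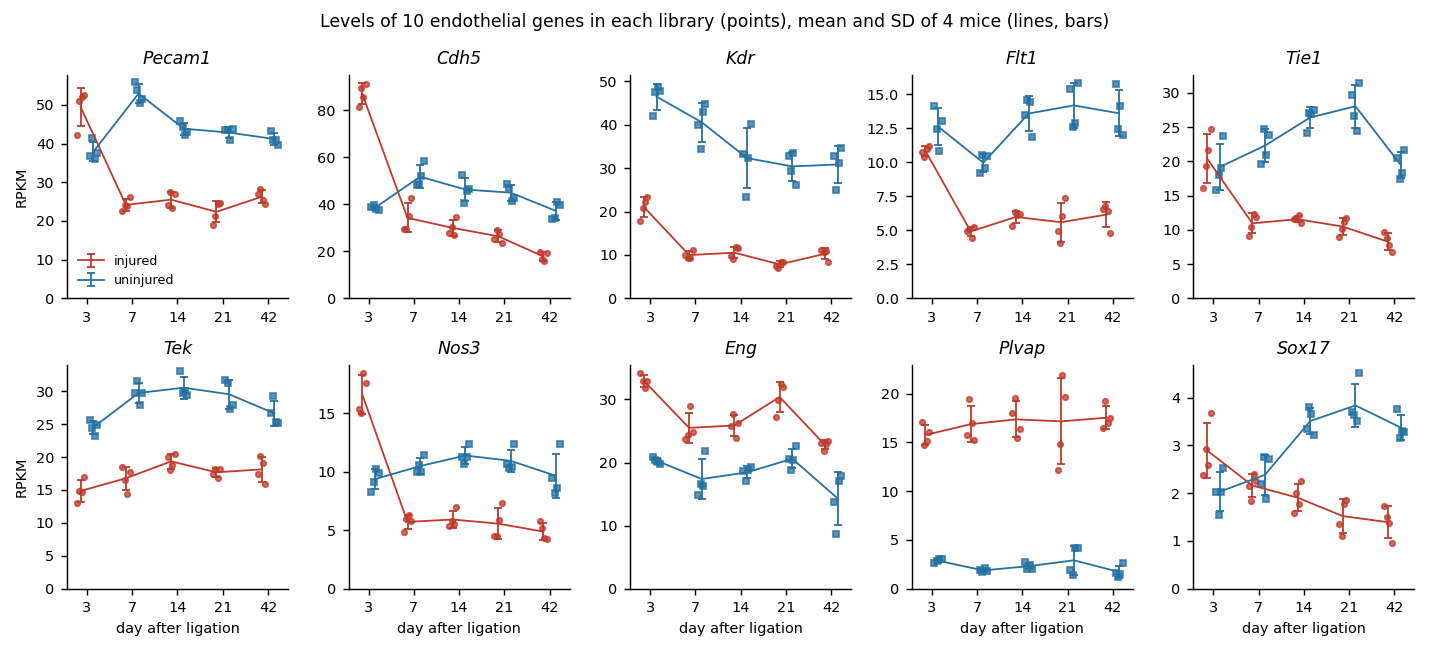
Level of each of the 10 genes in RPKM (vertical axes, from 0, with a scale of their own) by day after ligation (horizontal axes), injured region in red circles and uninjured region in blue squares, 1 point per library, lines through the means of 4 mice and bars of 1 SD. Plvap lies between 12.2 and 21.9 in all 20 injured libraries and at most at 4.14 in the uninjured ones, while Cdh5 and Nos3 have their highest injured values at day 3.

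Whether the region difference itself changed over the 5 days was tested by an F test of the interaction. It passed for 8 of the 10 genes, against 74.3% of all genes tested, and did not pass for Tek (limma adjusted p = 0.147) and Eng (0.58). Among the 8 the adjusted p ran from 1.36e-10 for Cdh5 to 0.00764 for Plvap. The Plvap call ended without the mouse block (adjusted p = 0.0745), and that of Tek was gained with quantile normalization (0.0237) and with scaling to recovered totals (0.00611). The mouse block changed the side of the threshold for only 1 other result of the 10 genes, Flt1 at day 3.

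The scaling between the regions is a limit on every level given here. Whole reads recovered from the steps of the deposited values summed to 11559155 to 26114582 per library. Relative to the library sizes behind the RPKM, those totals were higher in uninjured libraries (median 1.40, with 1 injured library of day 3 set to 1) than in injured ones (median 0.988). Scaling each library to its recovered total moved the median log2 difference of all genes to 0.49, 0.33, 0.41, 0.44 and 0.43 at the 5 days. Relative to that median each of the 10 genes kept its direction on each day, with Flt1 at -0.17 and Sox17 at 0.23 at day 3, and Sox17 at -0.18 at day 7. Without that correction Flt1 at day 3 and Sox17 at day 7 changed sign, the call of Tie1 at day 3 was gained, and those of Cdh5 at day 14 and of Pecam1 and Tek at day 42 ended. The ratio of 2 genes within a library does not carry this scaling, apart from the pseudocount.

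**Figure D2:**
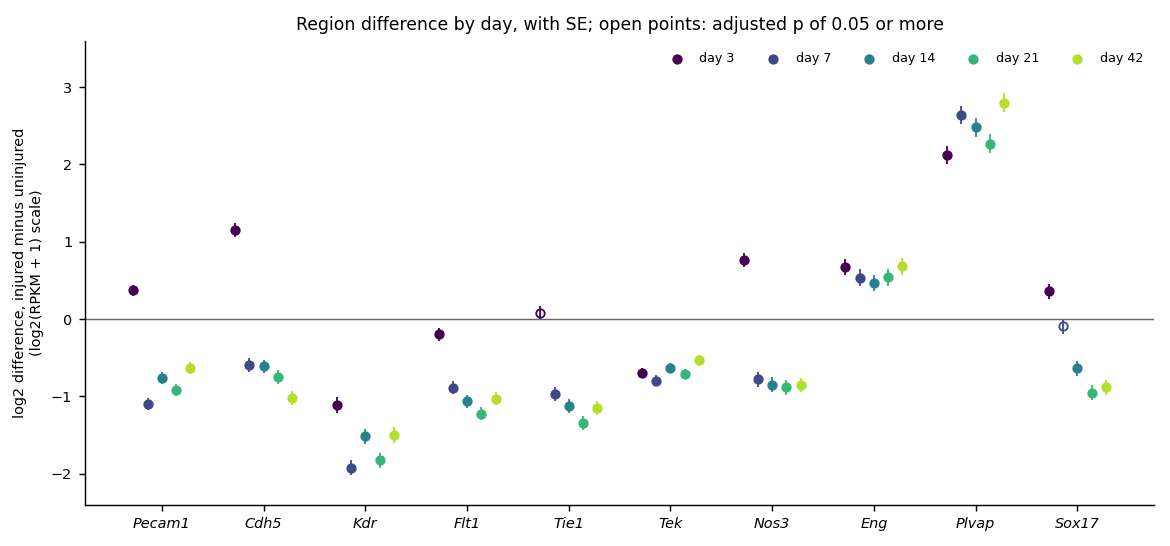
Log2 difference between the regions, injured minus uninjured (vertical axis, log2(RPKM + 1) scale), for each gene (horizontal axis) on each day (colours), with bars of 1 SE. Plvap lies above 2 on all 5 days and Kdr below -1, and Pecam1, Cdh5, Nos3 and Sox17 are above 0 at day 3 and below 0 from day 7 on, where rescaling to recovered totals turns Sox17 at day 7 and Flt1 at day 3.

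Kdr (chromosome 5, 75932827 to 75978458, minus strand, in mm10 with GENCODE M21 positions), the main VEGF receptor, was the most depleted of the 10 genes in the scar. At day 3 it was at 17.9, 20.8, 22.2 and 23.3 RPKM in the injured region of mice A4, A5, A7 and A8 and at 42.1, 47.5, 48.7 and 47.7 in their uninjured region. At day 7 the injured values were 10.1, 9.41, 9.18 and 11.2 and the uninjured ones 39.9, 34.5, 43.0 and 44.9. Every injured library lay below every uninjured one on both days. By day 21 the injured level was lowest, at 7.52, 7.02, 8.36 and 8.43, against 32.8, 29.3, 33.4 and 26.1, and at day 42 it was at 11.1, 10.6, 10.9 and 8.37 against 32.8, 24.9, 31.1 and 34.5. On the log2 scale the differences of the 5 days were -1.11 ± 0.10, -1.92 ± 0.10, -1.52 ± 0.10, -1.83 ± 0.10 and -1.50 ± 0.10 (SE; limma adjusted p at most 9.11e-10), and -0.66 at day 3 with quantile normalization. Kdr was lower in the injured region of 20 of 20 mice, and its day 7 and day 21 differences were below those of all but 6.60% and 5.93% of the genes tested.

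Flt1 (chromosome 5, 147561604 to 147726011, minus strand) shared the direction from day 7 on but not the size. At day 3 its 4 injured values, from 10.4 to 11.2 RPKM, overlapped the uninjured values of 14.1, 12.4, 10.9 and 13.1. That difference of -0.20 ± 0.09 was called with the mouse block (limma adjusted p = 0.0369), but not without the block (0.0932), with the mouse as a random effect (0.0576), with quantile normalization (0.643), or without mouse A4, A5 or A8 (0.184, 0.1 and 0.0811). Scaling to recovered totals turned it to 0.33 (adjusted p = 0.000177). At day 7 Flt1 was at 4.97, 5.08, 4.42 and 5.23 against 9.23, 10.6, 9.59 and 10.5, with no overlap. From then on its log2 difference was -0.89 ± 0.09, -1.06 ± 0.09, -1.22 ± 0.09 and -1.03 ± 0.09 (adjusted p at most 3.49e-09). The gene value joins the membrane-bound and the soluble form, which were not separated here.

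The ratio of Kdr to Flt1 within a library shows the unequal depletion. Its log2 value was lower in the injured region in 20 of 20 mice, by a mean of 0.69 with an SD of 0.303. A permutation test that flips signs at random gave p = 1e-05 (two-sided), the lowest value possible with 100000 resamples, and 1.67e-05 when adjusted over the 5 ratios compared. By day the mean difference was -0.91, -1.03, -0.45, -0.61 and -0.47. Uninjured tissue held 3.73 ± 0.620 times (SD, n = 4) as much Kdr as Flt1 per length at day 3 and 2.17 ± 0.398 at day 21. In the scar the day 3 ratio was 1.94 ± 0.190 and the day 21 ratio 1.45 ± 0.246. Relative to Pecam1, Kdr was also lower in 20 of 20 injured regions, with a mean log2 difference of -0.97 (SD 0.327, same permutation p).

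Of 8 VEGF ligands and other receptors tested, 4 had a higher level in the scar and 3 a lower one at days 3 and 7. At days 14, 21 and 42, 3 were higher and 3 lower. These counts are near the shares over all genes, of which 40.5% to 44.1% were called higher and 38.7% to 41% lower on the 5 days. Vegfa, the chief ligand of Kdr, was at 10.8 ± 1.85 RPKM (SD, n = 4) in the injured and 53.7 ± 5.37 in the uninjured tissue of day 7, with a log2 difference of -2.22 ± 0.13 (limma adjusted p = 8.18e-13). Vegfb, a ligand of Flt1, had differences from -2.57 ± 0.18 at day 3 to -1.61 ± 0.18 at day 42. Both were lower on all 5 days. Pgf, placental growth factor and also a ligand of Flt1, was higher at day 3, at 16.4 ± 5.49 against 2.63 ± 0.293 (2.22 ± 0.15, adjusted p = 1.29e-11), and by day 14 its difference was 0.12 ± 0.15 (adjusted p = 0.475). Vegfd was higher on every day, with 2.69 ± 0.10 at day 14, as was Flt4, the receptor of VEGF-C and VEGF-D (1.22 ± 0.11 at day 3). The co-receptor Nrp1 was lower on every day, between -0.80 ± 0.07 and -0.70 ± 0.07, whereas Nrp2 was higher at day 3 alone among the days that passed (1.06 ± 0.10).

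Tie1 (chromosome 4, 118471191 to 118490061, minus strand) did not differ detectably between the regions at day 3, when its injured values of 16.1, 19.3, 21.6 and 24.7 RPKM overlapped the uninjured values of 15.9, 18.1, 19.0 and 23.8. The difference was 0.09 ± 0.09 (limma adjusted p = 0.382), with the injured value the higher in 4 of 4 mice. It was called with quantile normalization (0.40, adjusted p = 0.000328) and with scaling to recovered totals (0.63, 5.31e-07), where all genes had a median of 0.49. At day 7 Tie1 was at 9.15, 10.5, 12.4 and 11.8 in the injured and 19.6, 24.7, 21.0 and 23.9 in the uninjured region, without overlap. The log2 differences from day 7 on were -0.96 ± 0.09, -1.12 ± 0.09, -1.34 ± 0.09 and -1.15 ± 0.09 (adjusted p at most 2.26e-09). At day 21 the uninjured level was the highest, at 29.7, 26.6, 24.5 and 31.4, against 9.001, 10.1, 11.2 and 11.7 in the scar.

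Tek (chromosome 4, 94739289 to 94874976, plus strand), the angiopoietin receptor, was lower in the scar on every day. At day 3 it was at 13.0, 14.9, 14.6 and 16.9 RPKM against 25.6, 24.4, 23.2 and 24.8, and at day 42 at 17.4, 20.2, 19.0 and 15.9 against 26.7, 29.3, 25.4 and 25.2. The injured and uninjured libraries did not overlap on any day. Its log2 difference was -0.69 ± 0.07, -0.79 ± 0.07, -0.63 ± 0.07, -0.71 ± 0.07 and -0.53 ± 0.07 (limma adjusted p at most 2.86e-07). Quantile normalization kept these calls at smaller sizes, from -0.17 to -0.46, and scaling to recovered totals ended that of day 42 (-0.02, adjusted p = 0.754).

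In the scar Tie1 was above Tek at day 3 and below it afterwards. The log2 ratio of Tek to Tie1 was lower in the injured region in 4 of 4 mice at day 3, by a mean of 0.78, and higher in 4 of 4 mice on each of days 14, 21 and 42, by 0.49, 0.63 and 0.62. Day 7 lay between, at 0.17. Over all 20 mice, with days of opposite direction, the mean of 0.23 did not pass (two-sided sign-flip permutation p = 0.0952), and it passed without day 3 mouse A4, A5 or A7 (adjusted p = 0.0345, 0.0402 and 0.0363). In the scar itself the ratio was 0.734 ± 0.0633 at day 3 and 2.22 ± 0.286 (SD, n = 4) at day 42. The mice of the 2 ends differ in label series.

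Angpt1, the activating ligand of Tek, was at 2.11 ± 0.576 RPKM in the day 3 scar and 27.0 ± 4.75 in uninjured tissue, a difference of -3.17 ± 0.13 (log2; limma adjusted p = 5.39e-15). Angpt1 was lower on every day, with -1.06 ± 0.13 at day 42. Angpt2, which is made by endothelial cells and can counter Angpt1, went the other way on every day, from 1.18 ± 0.15 at day 7 to 2.11 ± 0.15 at day 14. Foxo1, a transcription factor restrained by Tek signalling, was higher on all 5 days, with 0.35 ± 0.08 on day 3 and 0.93 ± 0.08 on day 14. Ptprb, the endothelial phosphatase that acts on Tek, was lower at day 3 (-0.48 ± 0.09), where scaling to recovered totals gave 0.06 (adjusted p = 0.499), and it did not pass on the later days (0.05 ± 0.09 at day 14).

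The junction genes Cdh5 and Pecam1 had their highest scar levels at day 3. Cdh5, VE-cadherin (chromosome 8, 104101625 to 104144511, plus strand), was at 81.5, 89.6, 85.7 and 91.3 RPKM in the injured and 38.7, 39.8, 38.1 and 37.5 in the uninjured region on that day. All 4 injured libraries were above all 4 uninjured ones, with a log2 difference of 1.15 ± 0.09 (limma adjusted p = 1.07e-10). At day 7 the order had turned, with 29.6, 29.6, 35.0 and 42.6 against 48.2, 48.5, 51.8 and 58.5. The day 14 scars held 27.9, 30.5, 26.8 and 34.6, those of day 21 25.3, 29.2, 27.5 and 23.7 and those of day 42 19.8, 16.7, 15.8 and 19.2. The differences were -0.60 ± 0.09, -0.61 ± 0.09, -0.75 ± 0.09 and -1.02 ± 0.09 (adjusted p at most 3.14e-06). Quantile normalization moved the difference to 1.85 at day 3 and -0.65 at day 42. The calls of days 7, 14 and 21 ended with quantile normalization (-0.14, -0.04 and -0.17; adjusted p = 0.192, 0.711 and 0.109), and that of day 14 with scaling to recovered totals (-0.12, adjusted p = 0.2).

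Pecam1, or CD31 (chromosome 11, 106654217 to 106750628, minus strand), is also carried by platelets and by some leukocytes. At day 3 it was at 42.1, 51.0, 51.9 and 52.6 RPKM in the injured region against 36.7, 41.4, 36.0 and 37.5, a log2 difference of 0.37 ± 0.08 (limma adjusted p = 0.000131). The injured library of mouse A4 lay well below the other 3 and just above the highest uninjured one. At day 7 the values were 22.6, 24.1, 23.8 and 26.1 against 56.0, 53.9, 50.4 and 51.4. The differences from day 7 on were -1.10 ± 0.08, -0.76 ± 0.08, -0.92 ± 0.08 and -0.63 ± 0.08 (adjusted p at most 1.56e-07), and that of day 42 was -0.11 (adjusted p = 0.126) with scaling to recovered totals. Quantile normalization gave 0.93, -0.69, -0.23, -0.36 and -0.20 on the 5 days.

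Markers of cells that can carry Pecam1 moved in the same libraries. The platelet genes Pf4 and Ppbp, the 2 of 8 platelet genes in the table, summed to 79.6 to 119 RPKM in the injured libraries of day 3, 11.3 to 40.7 at day 7 and 5.85 to 8.97 at day 14, against 14.97 to 21.8 in the uninjured libraries of day 3. Neither was at 0 in any library. The 5 neutrophil genes summed to 34.0 to 81.0 in the injured libraries of day 3 and to 3.24 to 11.96 in the uninjured ones, and among them Cxcr2 was listed at 0 in 5 libraries and S100a8 and Mmp9 in 1 each. The 12 monocyte and macrophage genes summed to 1082 to 1614 at day 3 and 1666 to 2601 at day 7 in the scar, and to 358 to 426 and 348 to 374 in the uninjured region. Their part in the Pecam1 level was not tested.

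Relative to Pecam1, Cdh5 was higher in the injured region in 15 of 20 mice (mean log2 difference 0.24, SD 0.424; sign-flip permutation p = 0.0194, 0.0242 adjusted over the 5 ratios). That mean joins days of opposite sign. By day the means were 0.78, 0.51, 0.15, 0.17 and, on day 42, -0.39, where the ratio was lower in 4 of 4 mice. In the scar, Cdh5 was 1.77 ± 0.118 times Pecam1 (SD, n = 4) at day 3 and 0.684 ± 0.0919 times at day 42, while the uninjured ratio stayed between 0.906 and 1.06 on average.

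**Figure D3:**
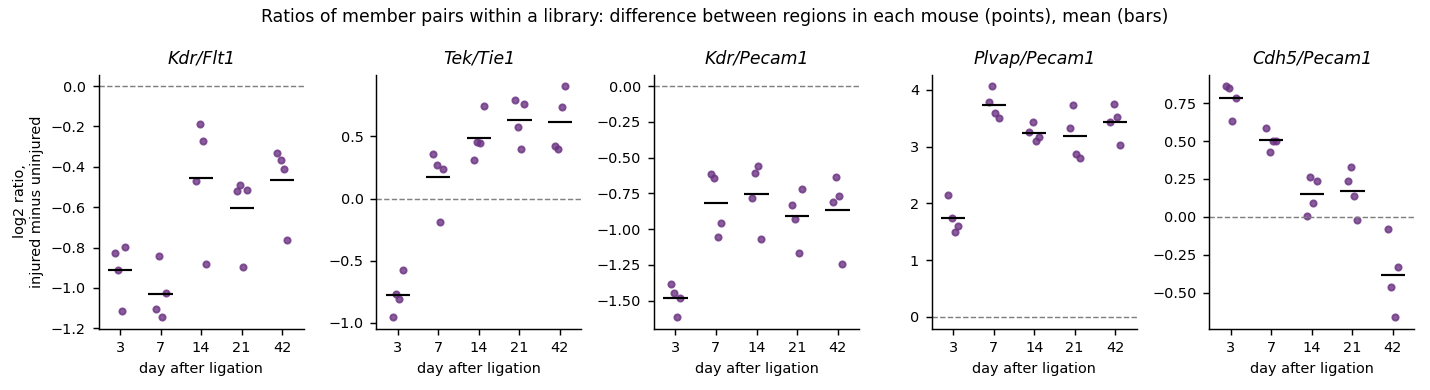
Log2 ratio of 5 pairs of genes within a library, injured minus uninjured (vertical axes), for each mouse (points) by day after ligation (horizontal axes), with bars at the mean of 4 mice. Kdr/Flt1 and Kdr/Pecam1 are below 0 and Plvap/Pecam1 is above 0 in 20 of 20 mice, while Tek/Tie1 is below 0 in 4 of 4 mice at day 3 and above 0 from day 14 on, and Cdh5/Pecam1 is below 0 in 4 of 4 mice at day 42.

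Nos3, endothelial nitric oxide synthase (chromosome 5, 24364810 to 24384474, plus strand), was higher in the scar at day 3, at 15.4, 15.04, 18.4 and 17.6 RPKM against 8.24, 9.15, 10.2 and 9.88. The groups did not overlap, and the log2 difference was 0.76 ± 0.09 (limma adjusted p = 1.72e-07). At day 7 it was lower, at 4.83, 5.92, 6.26 and 5.80 against 9.95, 10.6, 9.94 and 11.5. The later differences were -0.85 ± 0.09, -0.88 ± 0.09 and -0.85 ± 0.09, close to the -0.78 ± 0.09 of day 7 (adjusted p at most 1.36e-07). Atg9b and an antisense transcript on the other strand overlap the Nos3 locus, and neither is a row of the table. Whether they share exon bases with Nos3 was not measured. The strand setting of the counting is not given in the sources used here, so reads from any shared bases cannot be told apart. The same holds for transcripts on the other strand at Cdh5 and Sox17.

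Of 15 genes of nitric oxide synthesis and response, 5 were higher and 5 lower at day 3, and 4 were higher and 9 or 10 lower on the later days. Over all genes, 44.1% were called higher and 39.6% lower at day 3, and later 40.5% to 43.6% higher and 38.7% to 41% lower. Cav1, the caveolar protein that restrains Nos3, had a log2 difference of -0.16 ± 0.10 at day 3 (limma adjusted p = 0.142) and was lower from day 7 on, with -2.18 ± 0.10 at day 7, at 45.5 ± 1.23 against 209 ± 12.1 RPKM. Gch1, which starts the synthesis of the cofactor tetrahydrobiopterin, was lower from day 7 on (-0.55 ± 0.08), and Pts and Spr, the next enzymes, were lower on every day (down to -1.58 ± 0.10 and -1.33 ± 0.06). Ddah1, which breaks down an inhibitor of nitric oxide synthase, was higher on every day and reached 3.90 ± 0.17 at day 7. Gucy1a3, a subunit of the nitric oxide receptor guanylate cyclase, was at -0.14 ± 0.11 at day 3 (adjusted p = 0.25) and higher from day 7 on (2.12 ± 0.11). The inducible synthase Nos2 was higher at day 3 (0.82 ± 0.11) and lower from day 7 on (-0.75 ± 0.11). Of the list's other members, Hsp90ab1 turned sign from day 7 on with quantile normalization, and with either rescaling fewer of the 15 were lower from day 7 on.

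Eng, endoglin (chromosome 2, 32646595 to 32682669, plus strand), was one of the pair that stayed higher in the scar. At day 3 it was at 34.2, 32.9, 31.8 and 32.9 RPKM in the injured and 20.9, 20.5, 20.1 and 19.8 in the uninjured region. At day 42 it was at 23.0, 21.8, 23.0 and 23.4 against 13.7, 8.59, 17.1 and 17.8, where the uninjured library of mouse B3 was the lowest of all 40. No injured library overlapped the uninjured ones of its day, and the injured value was the higher in 20 of 20 mice. The log2 difference was 0.67 ± 0.11, 0.54 ± 0.11, 0.47 ± 0.11, 0.54 ± 0.11 and 0.68 ± 0.11 (limma adjusted p at most 0.000496). With quantile normalization it was larger on all 5 days, from 0.85 to 1.08.

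Endoglin is also made by activated macrophages and by stromal cells. The 7 fibroblast genes summed to 991 to 1342 RPKM in the injured libraries of day 3 and 3282 to 4016 at day 7, against 449 to 613 and 529 to 695 in the uninjured region. The 12 macrophage genes were higher in the scar on the same days, as given for Pecam1, and the part of either in the Eng level was not tested. Exons of Fpgs on the other strand share 61 bases with exons of Eng. Fpgs, a folate enzyme, was itself higher in the injured region, at 3.18 ± 0.273 against 1.49 ± 0.137 RPKM at day 3, far below the level of Eng.

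Genes of the endoglin pathway were counted next. Of 13 tested, 6 were higher and 3 lower at day 3, then 8 and 2 on day 7, 11 and 2 on days 14 and 21, and 10 and 2 on day 42. On day 3 that is 6 of 13 beside 44.1% of all genes called higher. On the later days 40.5% to 43.6% of all genes were called higher and 38.7% to 41% lower. The list's median log2 difference was 0.18, 0.52, 0.69, 0.87 and 0.75 on the 5 days, against 0.03 to 0.06 over all genes, and whether it changed over the days was not tested. Acvrl1, the endothelial receptor that Eng serves, was at 20.2 ± 2.49 RPKM against 8.10 ± 0.636 at day 7, 1.21 ± 0.07 on the log2 scale (limma adjusted p = 4.2e-13). Of the targets of BMP signalling, Id2 reached 2.48 ± 0.13 at day 42, Id3 1.49 ± 0.11 at day 7, and the inhibitory Smad6 and Smad7 1.59 ± 0.13 and 1.32 ± 0.11 at day 42. Id1 went against them, from -0.97 ± 0.11 at day 3 to -0.48 ± 0.11 at day 42, where scaling to recovered totals gave 0.03 (adjusted p = 0.796). Acvr2a was lower on every day, from -0.80 ± 0.06 at day 3 to -0.21 ± 0.06 at day 14, and turned to 0.23 and 0.24 at days 14 and 21 with that scaling. These genes are expressed by many cell types besides endothelium.

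Plvap (chromosome 8, 71497765 to 71511752, minus strand) had the largest difference of the 10 genes. Its scar values were 17.1, 14.7, 15.2 and 16.0 RPKM on day 3, 15.8, 19.4, 17.0 and 15.3 on day 7 and 18.0, 19.6, 15.4 and 16.4 on day 14. The uninjured values were 2.59, 2.82, 3.00 and 3.01, then 1.92, 1.66, 2.08 and 1.78, then 2.70, 2.04, 2.43 and 2.01. Injured and uninjured libraries were far apart on every day, up to day 42 with 16.4, 19.2, 17.0 and 17.5 against 1.56, 1.16, 1.47 and 2.64. The log2 difference was 2.12 ± 0.12, 2.64 ± 0.12, 2.48 ± 0.12, 2.27 ± 0.12 and 2.80 ± 0.12 (limma adjusted p at most 5.23e-13), a scale that understates the change of the low uninjured level. Of all genes tested, 97.4% had a lower value at day 3 and 99.5% at day 42. The uninjured level rested on few reads, with at least 51 recovered reads in each library.

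At day 21 Plvap divided the mice alike in both regions. It was at 12.2, 14.9, 21.9 and 19.6 in the scars of mice A3, A4, A10 and A11, and at 1.93, 1.37, 4.14 and 4.14 in their uninjured regions, so A3 and A4 were the lower pair in each. In the scars this was not particular to Plvap. There A3 and A4 were also the lower pair for Pecam1, Kdr, Flt1, Tie1, Nos3, Eng and Sox17, but not for Cdh5 and Tek. In the uninjured regions they were the lower pair for Plvap alone among the 10 genes. The Plvap values of that day are thus shared in part with other genes. The difference of that day stayed between 2.11 and 2.36 when any of the 20 mice was left out. Relative to Pecam1, Plvap was higher in the injured region in 20 of 20 mice, by a mean log2 difference of 3.07 (SD 0.754; sign-flip permutation p = 1e-05, the smallest possible). The Plvap to Pecam1 ratio in the scar was 0.323 ± 0.0563 at day 3 and 0.701 ± 0.0897 at day 7, when the Pecam1 level dropped. Gtpbp3, a gene that overlaps the Plvap locus on the other strand, shares 0 exon bases with it and had log2 differences of -0.16 to -0.29.

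Sox17 (chromosome 1, 4490931 to 4497354, minus strand), the lowest of the 10 genes in the scar, crossed from higher to lower in the scar. At day 3 it was at 2.37, 2.93, 2.60 and 3.68 RPKM in the injured region and 2.01, 1.54, 2.03 and 2.53 in the uninjured region, higher in the injured region of 4 of 4 mice although the groups overlap. The log2 difference of 0.36 ± 0.10 (limma adjusted p = 0.002) lost its call with quantile normalization (0.11, adjusted p = 0.31). At day 7 the values were 2.15, 1.84, 2.41 and 2.24 against 2.18, 2.75, 1.88 and 2.71 and the difference of -0.09 ± 0.10 did not pass (adjusted p = 0.387). It was -0.32 with quantile normalization (adjusted p = 0.00722), 0.15 with scaling to recovered totals (0.136), and from -0.20 without mouse A10 to 0.01 without mouse A9. At day 14 the regions were apart, at 1.59, 1.99, 1.78 and 2.25 against 3.35, 3.81, 3.67 and 3.21. The differences of days 14, 21 and 42 were -0.64 ± 0.10, -0.95 ± 0.10 and -0.88 ± 0.10 (adjusted p at most 4.32e-06). Its depth was 115 to 510 recovered reads per library.

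As deposited, the 13 arterial and Notch genes gave no common direction. At day 3, 6 were higher and 4 lower, and at day 7, 5 and 3. Days 14 and 42 had 5 and 5, and day 21 had 5 and 7. Of all genes, 40.5% to 44.1% were called higher and 38.7% to 41% lower on these days. Among the 13, the Notch ligand Jag1 was higher on every day, with 1.56 ± 0.08 at day 7. The ligand Jag2 was lower on every day, with -1.32 ± 0.10 at day 42. Gja4, an arterial gap junction gene, was higher from day 7 on (1.13 ± 0.13 at day 42). The direction of the list's median depended on the scaling. It was -0.29 at day 21 as deposited, -0.20 with quantile normalization and 0.14 with scaling to recovered totals, or -0.30 relative to all genes. The counts depended on it too. With scaling to recovered totals, 7 were higher and 0 lower at day 3, then 7 and 2, 7 and 3, 6 and 4, and 8 and 3. Relative to all genes after that scaling, the list's median was 0.11, -0.04, -0.11, -0.30 and 0.01 on the 5 days.

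Between days 3 and 7, Nos3, both junction genes and the receptors Kdr, Flt1 and Tie1 fell in the scar, while Tek did not pass. In the injured region 8 of the 10 genes fell over this step and none rose, against 32.7% of all genes tested that fell and 27.7% that rose. Nos3 fell by 1.39 ± 0.12 on the log2 scale, Cdh5 by 1.34 ± 0.11, and Kdr by 1.01 ± 0.10, with Flt1 and Pecam1 just below Kdr (limma adjusted p at most 6.8e-07). Tie1 fell by 0.83 ± 0.12 and Eng by 0.36 ± 0.07. Sox17 fell by 0.29 ± 0.12, a call (adjusted p = 0.0397) that ended with a pseudocount of 0.1 (0.064) and without mouse A5 or A8 of day 3 or A7, A9 or A12 of day 7 (0.0536 to 0.157). Tek, at 0.17 ± 0.09, and Plvap, at 0.09 ± 0.13, did not pass.

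After day 7 few steps passed in the scar. From day 7 to day 14 limma called 0 of the 10 (1 at an unadjusted p under 0.05, Tek), while 21.9% of all genes rose and 21.2% fell. From day 14 to day 21 it called 0 of the 10 (2 unadjusted, Kdr and Eng) and 0% of all genes. From day 21 to day 42 Kdr rose by 0.35 ± 0.10 (adjusted p = 0.0172), and Cdh5 and Eng fell by 0.54 ± 0.11 and 0.40 ± 0.07 (0.00163 and 0.000635), against 11.2% of all genes that rose and 13.5% that fell. The Kdr call ended without mouse A4 of day 21 or B1 or B9 of day 42 (adjusted p = 0.0515, 0.0552 and 0.052). The day 42 animals carry another label series, so the step and a difference between the series cannot be told apart. Over all 5 days 9 of the 10 genes changed in the scar (F test, 87.6% of all genes), and Plvap did not pass (adjusted p = 0.819).

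The uninjured region was tested in the same way. Over the 5 days 8 of the 10 genes passed there, against 47.2% of all genes, and Nos3 (limma adjusted p = 0.109) and Plvap (0.0958) did not. Nos3 passed without day 42 mouse B12 (0.0076), and Plvap without day 21 mouse A4 (0.0126), without B12 (0.0309) or with quantile normalization (0.0352). Eng passed at 0.0287, but not with quantile normalization (0.095), without day 42 (0.103) or without mouse B1 (0.0664).

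From day 3 to day 7 Pecam1, Cdh5 and Tek rose in the uninjured region, by 0.47 ± 0.06, 0.41 ± 0.09 and 0.27 ± 0.07, and Flt1 fell by 0.31 ± 0.10 (adjusted p at most 0.0249). Of all genes 10.4% rose and 14.5% fell. Pecam1 and Cdh5 thus rose in the uninjured and fell in the injured region between these groups of separate mice. The Flt1 call ended with scaling to recovered totals (0.236) and without mouse A4 or A8 of day 3 or A7 or A10 of day 7 (0.0557 to 0.0827). From day 7 to day 14 Pecam1 fell by 0.27 ± 0.06, and Flt1 and Sox17 rose by 0.41 ± 0.10 and 0.42 ± 0.10 (adjusted p at most 0.0103), against 7.49% of genes that rose and 5.56% that fell. The Sox17 call ended with scaling to recovered totals (0.0554).

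Over days 14 to 21 limma called 0 of the 10 genes in the uninjured region (0 at an unadjusted p under 0.05) and 0.00878% of all genes. From day 21 to day 42 Tie1, Eng and Cdh5 fell by 0.50 ± 0.11, 0.54 ± 0.15 and 0.27 ± 0.09 (adjusted p = 0.00263, 0.0149 and 0.0328), and 10.4% of all genes rose and 10.1% fell. When the fit held no other days, Tie1 alone kept its call. Without mouse B3, the lowest uninjured Eng value, the Eng change was -0.33. The Eng call ended with quantile normalization (-0.41, limma adjusted p = 0.0553). The Cdh5 call also ended with quantile normalization (adjusted p = 0.297), with scaling to recovered totals (0.0549) and without mouse A3, A4, B1 or B3 (0.0807 to 0.101).

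Levels per length can be set side by side between the genes. In the uninjured region at day 3 Kdr was highest, at 46.5 ± 2.97 RPKM (SD, n = 4), followed by Cdh5 at 38.5 ± 0.960 and Pecam1 at 37.9 ± 2.39, whose values overlap. Tek, at 24.5 ± 0.995, stood above Eng (20.3 ± 0.475), and Tie1 (19.2 ± 3.34) overlapped both. Below them, without overlap, came Flt1 (12.6 ± 1.37), Nos3 (9.37 ± 0.869), Plvap (2.86 ± 0.196) and Sox17 (2.03 ± 0.406). In the scar of the same day Cdh5 led at 87.0 ± 4.39, ahead of Pecam1 at 49.4 ± 4.90 and Eng at 33.0 ± 0.989. At day 42 Pecam1 (26.2 ± 1.70) led in the scar ahead of Eng (22.8 ± 0.691), with Tek (18.1 ± 1.88), Cdh5 (17.9 ± 1.90) and Plvap (17.5 ± 1.198) overlapping below them. Kdr, the highest of the 10 in uninjured tissue at day 3, had 5 of them above it in the scar at day 42, at 10.3 ± 1.27.

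Other endothelial genes were read from lists by vessel type. For each list the background was 40.5% to 44.1% of all genes called higher and 38.7% to 41% lower on the 5 days. Of 23 further pan-endothelial genes tested, 7 were higher and 8 lower in the scar at day 3, then 0 higher and 22, 20, 22 and 19 lower on the following days. Their median log2 difference was 0.02, -0.96, -0.78, -0.90 and -0.82. Relative to all genes after scaling to recovered totals it was 0.04, -0.96, -0.75, -0.87 and -0.74, and without that correction 17 were higher and 3 lower at day 3. By the mean of the 5 days Tspan7, a membrane tetraspanin, Myct1 and Adgrf5 differed most among them, with -1.70 ± 0.10, -1.65 ± 0.13 and -1.19 ± 0.10 at day 7.

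The 12 genes of heart capillary endothelium were depleted further. At day 3, 11 were lower and 1 higher; 11 were lower at day 7 and all 12 on days 14, 21 and 42. The list's median was -1.38, -2.41, -2.28, -2.42 and -2.27, and relative to all genes after scaling to recovered totals it lay between -1.37 and -2.39. Car4, a carbonic anhydrase of capillaries, was at 0.142 ± 0.102 RPKM in the scar and 7.16 ± 1.33 in the uninjured region at day 7 (-2.83 ± 0.18). Aqp1, a water channel, was at -2.73 ± 0.19 at day 14. Cd36, a fatty acid transporter of capillaries that cardiomyocytes also express, was at -3.29 ± 0.15 at day 7. Cardiomyocyte genes were lower in the same libraries, by a median of -2.45 to -4.32, and their part in this list was not tested.

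Genes of sprouting endothelium went the other way. All 10 tested were higher in the scar at day 3, then 6 higher and 2 lower on day 7, 8 and 2 on days 14 and 21, and 7 and 2 on day 42. The median difference was 1.68 at day 3 and 0.48 at day 42, and 1.68 and 0.52 relative to all genes after scaling to recovered totals. Igfbp3, a binding protein of insulin-like growth factors, was at 85.7 ± 18.7 against 9.38 ± 1.51 RPKM at day 3 (3.05 ± 0.17). The guidance receptor Unc5b held at 1.85 ± 0.10 at day 3 and 1.79 ± 0.10 at day 42. Cxcr4, which leukocytes also carry, was at 2.26 ± 0.22 at day 3 and 0.47 ± 0.22 at day 42 (limma adjusted p = 0.0584). On day 3 the monocyte and macrophage genes were higher in 12 of 12 and the neutrophil genes in 5 of 5, against 44.1% of all genes. The part of these or other cells in the sprouting list was not tested. Cell cycle genes were higher at day 3 in 12 of 12, with a median of 2.01, against 44.1% of all genes. At day 7, 0 of 12 were higher and 3 lower, against 43.6% and 38.7% of all genes. Their summed level in the scar was 156 to 185 RPKM at day 3 and 56.1 to 89.1 at day 7. In the uninjured region that sum was 23.9 to 52.7 at day 3 and 61.4 to 102 at day 7. Which cells expressed them is not known from bulk tissue.

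Of 6 genes of venous or activated endothelium, 4 were higher at days 3, 7, 14 and 42 and 3 at day 21, while 0 were lower at day 3 and 2 later. The shares over all genes, here and for the next list, were 40.5% to 44.1% higher and 38.7% to 41% lower. The adhesion genes Vcam1 and Icam1, which fibroblasts and leukocytes also express, reached 2.13 ± 0.08 and 1.80 ± 0.08 at day 42, and the venous factor Nr2f2 was at 1.25 ± 0.07 at day 21. Of 12 endothelial transcription factors, 9 were higher and 3 lower at day 3, and 3 or 4 higher and 6 to 8 lower afterwards. With scaling to recovered totals more of the 12 were higher than lower on all 5 days. Relative to all genes after that scaling, their median was 0.49 at day 3 and then -0.20, -0.16, -0.23 and -0.13. Ets2 was at -1.41 ± 0.06 at day 7, and Etv6 and Lyl1, which blood cells also use, were higher on every day (1.29 ± 0.08 at day 21 and 0.89 ± 0.09 at day 3).

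**Figure D4:**
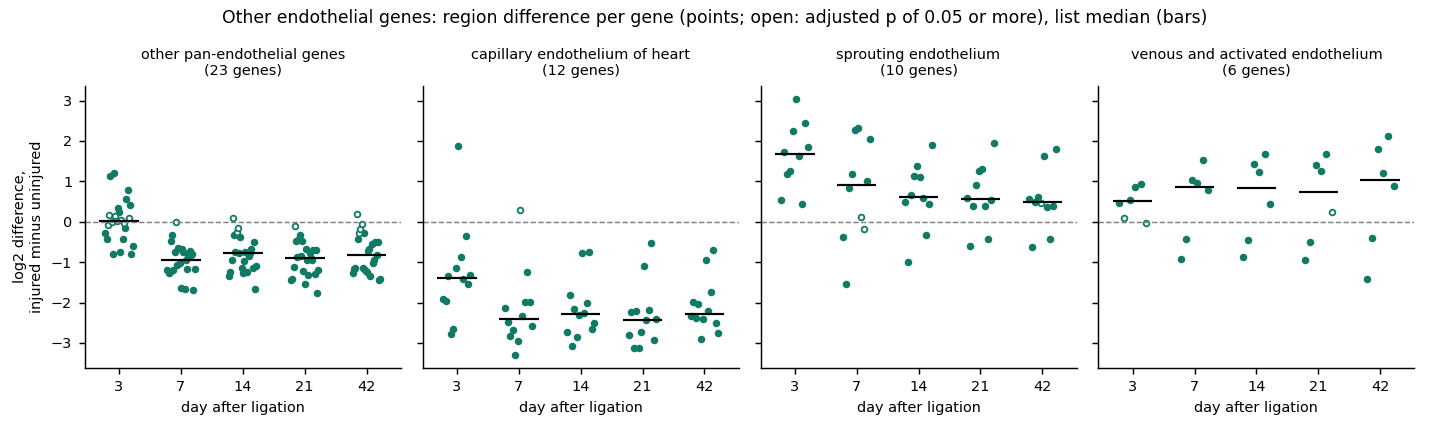
Log2 difference between the regions, injured minus uninjured (vertical axis), of the genes of 4 endothelial lists (panels) by day after ligation (horizontal axes), 1 point per gene, filled where the adjusted p is under 0.05, with bars at the list's median. The 12 heart capillary genes have medians between -1.38 and -2.42 and the 10 sprouting genes medians between 0.48 and 1.68, the pan-endothelial median turns from 0.02 to -0.96 between days 3 and 7, and with scaling to recovered totals the day 3 pan-endothelial median is 0.54.

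The other endothelial linings were followed by their own markers. The 3 endocardial genes summed to 6.32 to 8.10 RPKM in the scar at day 3 and 50.2 to 66.2 at day 42, against 8.005 to 11.3 and 9.68 to 13.6 in the uninjured region. Cytl1, a secreted protein also made by cartilage cells, turned from -2.14 ± 0.22 at day 3 to 3.09 ± 0.22 at day 42, when it made up most of the sum (48.5 ± 8.38 RPKM), while Npr3 was lower at days 3 and 7 and did not pass later (-0.15 ± 0.16). Nfatc1, a transcription factor of endocardium and also of lymphocytes, was higher on every day (1.13 ± 0.10 at day 3 and 1.26 ± 0.10 at day 14). Of 5 lymphatic genes, 1 was higher and 3 lower at day 3, and 1 and 2 at day 7. On days 14 and 21, 3 were higher and 2 lower, and on day 42 3 and 1. Of all genes, 40.5% to 44.1% were called higher and 38.7% to 41% lower on the 5 days. The 5 lymphatic genes summed to 37.5 to 69.9 RPKM in the day 42 scar and 23.9 to 29.2 in the uninjured region. Prox1 was lower on every day (from -2.23 ± 0.14 at day 3 to -0.80 ± 0.14 at day 14), as was Lyve1 up to day 21 (-2.04 ± 0.22 at day 7). Pdpn, which fibroblasts also express, was higher on every day (2.38 ± 0.14 at day 3). Their part in the levels of the 10 genes was not tested.

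Pericytes and smooth muscle cells wrap these vessels. Of 10 of their genes, 6 were higher and 4 lower at day 3, and 7 higher and 3 lower on the later days. The shares over all genes, here and for the hypoxia list below, were 40.5% to 44.1% higher and 38.7% to 41% lower. The contractile genes Tagln and Cnn1, which myofibroblasts share, were at 3.06 ± 0.21 and 2.81 ± 0.17 at day 7. Abcc9, a potassium channel subunit of pericytes and also of cardiomyocytes, was at -2.34 ± 0.11. Of 8 hypoxia-induced genes tested, 4 were higher and 3 lower at day 3. On that day it was 6 and 2 with quantile normalization and 5 and 2 with scaling to recovered totals. On each later day 5 were lower, while 3 were higher on days 7, 14 and 42 and 2 on day 21. Bnip3 and Pdk1 were lower on every day (-2.04 ± 0.16 at day 21 and -2.13 ± 0.14 at day 7), and the glycolytic activator Pfkfb3 was higher on every day (1.67 ± 0.09 at day 3).

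The genes most like each of the 10 were found by Pearson's r of log2(RPKM + 1) over the 40 libraries, a description in which points share region and day. Genes known from endothelium were among them: She and Icam2 for Pecam1 (r = 0.97 and 0.94), Dll4 for Cdh5 (0.94), Rasip1 and Robo4 for Nos3 (0.97 and 0.95), Esam for Tie1 (0.95), and Sema3g and Tie1 for Sox17 (0.86 and 0.85). For Kdr it was the integrin Itgb6 (0.98), for Flt1 the translation factor Eif4g1 (0.96), and for Plvap the oncostatin M receptor Osmr (0.98). Tek was most like AW112010 (0.96) and Tspan12 (0.96), and Eng like Tpcn1 (0.93).

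With the mean of each day and region subtracted, what is left is how libraries of a group vary together. Endothelial genes then stood first for Plvap, with Vwf (0.82), for Nos3, with Esam and Egfl7 (0.81 and 0.80), for Flt1, with Thbd (0.80), and for Pecam1, with Mmrn2 (0.64). Kdr was most like the ETS factor Ets1 (0.71), Tek like the pericyte gene Rgs5 (0.77), Eng like Gnb1 (0.85) and Cdh5 like Pcdh1 (0.68). Among the 10 themselves, Tek and Plvap were at r = -0.91 over all 40 libraries and -0.37 within groups, and Sox17 and Tie1 at 0.85 and 0.69.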

How the data were processed

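RNA was sequenced from the injured and uninjured region of 20 mouse hearts, 4 for each of 5 days. The authors deposited 1 table of RPKM values with 11450 genes and 40 libraries. Alignment with STAR, use of edgeR and the mm10 build are per the submitters' processing notes, whereas no source used here gives the gene annotation, the counting or its strand setting. The number of columns left unused was 0.

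Values were taken as log2(RPKM + 1), and the 11390 genes with at least 1 RPKM in at least 4 libraries were tested with limma 3.58.1 (R 4.3.3, statmod 1.5.0; trend and robust moderation). The region fit held all 40 libraries, with a term for each mouse and 15 residual degrees of freedom, and gave the region difference of each day and the interaction of region and day. Changes over days were fitted in each region by itself (20 libraries). P-values were adjusted by Benjamini-Hochberg over all genes tested, with a threshold of 0.05. Ratios of 2 genes within a library were compared by a sign-flip permutation test over mice. The series' design text states that both regions come from the same heart, and the deviations of the libraries of a mouse from their group means correlated at 0.148 to 0.540.

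Genes beyond the 10 were named by rule: at most 3 per list, those with the largest mean absolute difference among genes called at least once, any gene of the VEGF, angiopoietin, BMP9 and nitric oxide lists, and the 3 genes most like each of the 10. The 10 genes and the 20 lists were chosen with earlier results of these data known. Whole reads were recovered from the deposited RPKM steps for 11448 of 11450 genes, to within 0.01 reads, and gave the depth of 11559155 to 26114582 reads per library. They were used for depth and for one rescaling of the libraries, and no count test was run on them. The fits were tested on simulated data. Positions are from GENCODE M21 on mm10 and promoter windows from RefSeq on GRCm38.p6. Alternatives were another pseudocount, other filters, quantile normalization, rescaling to recovered totals, no moderation, no mouse block or a random one, fewer libraries, and each mouse left out. Leaving out day 42 was chosen after seeing the data.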

Additional observations from a re-analysis of the deposited data

Results flagged for a closer look

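The region difference changed over the 5 days for 8 of the 10 genes (limma F test of the interaction), against 74.3% of all genes tested. The adjusted p was 1.36e-10 for Cdh5, 3.32e-09 for Nos3, 3.81e-09 for Pecam1, 4.47e-08 for Tie1, 1.83e-07 for Sox17, 2.61e-06 for Flt1, 0.000255 for Kdr and 0.00764 for Plvap.

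In 4 of 100 groups of 4 libraries 1 value lay far from the other 3 (by Dixon's ratio), and chance gives about 1 in 20. Pecam1 was at 42.1 RPKM in the injured library of day 3 mouse A4, against 51.0 to 52.6 in the others. It was at 40.8 in the uninjured library of day 21 mouse A10, against 43.4 to 43.7. Flt1 was at 4.83 in the injured library of day 42 mouse B12, against 6.45 to 6.78. Tek was at 33.0 in the uninjured library of day 14 mouse A4, against 29.4 to 30.0.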

How the results depend on the processing

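Of the counts and ratios, 692 values under alternatives were scored as unchanged, 4 moved and 3 passed the threshold. A small change of a count was scored as unchanged. The genes lower in the scar at day 3, for example, ranged from 2 to 3 when each mouse was left out. Shifts of the counts by scaling to recovered totals were also scored as unchanged. At day 3 that scaling called Flt1 and Tie1 higher in the scar (0.33 and 0.63, limma adjusted p = 0.000177 and 5.31e-07). At day 42 it ended the lower calls of Pecam1 and Tek (adjusted p = 0.126 and 0.754). Of the single-gene values 2784 stayed, 41 lost the call, 9 gained one and 3 changed sign. With only the libraries of the days compared, the genes changed from day 7 to day 14 in the scar went from 0 to 1, and those changed from day 21 to day 42 in the uninjured region from 3 to 1. Leaving out each mouse gave 0 to 1 (1 without day 7 mouse A7, when Tek was called) and 2 to 5 (5 without day 42 mouse B12). The Tek to Tie1 ratio ranged from 0.190 to 0.288. The values that changed sign were Flt1 at day 3 (0.33) and Sox17 at day 7 (0.15) with scaling to recovered totals, and Sox17 at day 7 without mouse A9 (0.0103, in a range of -0.20 to 0.0103). The cause was not tested. Without the mouse block the pairing of the libraries is ignored: the Flt1 call at day 3 (adjusted p = 0.0932) and the Plvap interaction (0.0745) ended, and no other call of the 10 genes changed. Depth limits Plvap most, with at least 51 reads, and Sox17, with at least 115.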
